A study of Mus musculus with 48 samples.

Results

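Neurons expressing the forkhead gene *Foxb1* together with a second gene of the mammillary region were examined in single cell RNA-seq data from the embryonic mouse hypothalamus. Cells were taken when they held at least 1 UMI (a tagged transcript molecule, counted once) of *Foxb1*, at least 1 UMI of any of *Sim1*, *Nhlh2*, *Cck*, *Prokr2* or *Lhx1os*, and UMIs of at least 3 of the 6 neuron genes *Stmn2*, *Tubb3*, *Snap25*, *Syt1*, *Elavl4* and *Rbfox3*. This gave 1294 of 14121 cells, hereafter Foxb1 neurons, 706 of them from *Eed-cKO* embryos and the rest from control. They were thus selected on measured UMIs of these 12 genes, in both genotypes alike. They were compared with 9674 other neurons, which passed the same neuron criterion and held 0 *Foxb1* UMIs.

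The mammillary bodies form the posterior end of the hypothalamus and relay signals between the hippocampus, the midbrain and the anterior thalamus, and their output neurons are glutamatergic. *Foxb1* marks the developing mammillary region and is needed for its axon tract to the thalamus, while the transcription factors *Sim1*, *Sim2* and *Lhx1* are active in the same primordium. *Eed* encodes a core subunit of Polycomb repressive complex 2 (PRC2), which places the repressive H3K27me3 mark on histones and keeps Hox genes silent in the forebrain.

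Hypothalami were dissected at E18.5 from 6 control embryos (*Eed fl/fl*; 2 female, 4 male; 22 libraries) and 9 *Eed-cKO* embryos (*Eed fl/fl; Sox1-Cre/+*; 5 female, 4 male; 26 libraries). Both groups carried the floxed *Eed* allele on a mixed B6:129S1 background, and only the second carried *Sox1-Cre* (active from early neural development), which removes the floxed exons. The question was how loss of *Eed* altered gene expression in hypothalamic cells. The replicate was the embryo, whose libraries were summed.

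The leading number in each library name was read as the litter, which gave 4 control and 6 *Eed-cKO* litters and 0 litters with both genotypes, so litter and genotype cannot be told apart. Libraries held 576432 to 4513505 UMIs. The control library F4650_E2S4 stood apart, with 1207 cells against 163 to 465 in every other library, a median of 2919 UMIs per cell, and 103 of the Foxb1 neurons. Its embryo F4650_E2 contributed 146 Foxb1 neurons, and results that changed without this library are given both ways. Of 14019 different cell barcodes, 101 occurred in more than 1 library, a pair of libraries shared at most 2, and 14 Foxb1 neurons carried such a barcode. A control embryo gave 56 to 146 Foxb1 neurons and an *Eed-cKO* embryo 9 to 147, the lowest being embryo F0582_E2. The median depth was 6013.5 UMIs per Foxb1 neuron in control and 5048 in *Eed-cKO*.

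The genes that chose the cells are given as a description only. *Foxb1* (chromosome 9, 69757710-69760940) was at 4 UMIs in the median control cell and at 28 in the highest. Cells with exactly 1 *Foxb1* UMI made up 18.7% of control and 29.5% of *Eed-cKO* Foxb1 neurons, and cells with 4 or more made up 59.9% and 42.9%. Among 687 vascular, immune and leptomeningeal cells, which should lack the gene, 1.02% held a *Foxb1* UMI. *Lhx1os*, a long non-coding RNA, was the most frequent second gene (82.8% in control, 78.6% in *Eed-cKO*). The neuropeptide gene *Cck* was found in 69.7% and 69.3%, the helix-loop-helix factor *Nhlh2* in 62.1% and 59.9%, *Sim1* in 49.7% and 45%, and the prokineticin receptor gene *Prokr2* in 28.7% and 24.1%. In control, 10.7% of the Foxb1 neurons rested on 1 second gene alone, against 16.1% in *Eed-cKO*.

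The mammillary label was checked with 6 transcription factor genes that the rule did not use. Of these, *Onecut2* was among the markers given with the rule, so it is not an independent check. After thinning each cell to 2000 UMIs, *Onecut2* was found in 43.6% ± 8.91 of Foxb1 neurons (mean ± SD, n = 15 embryos) and in 22% ± 9.58 of other neurons. *Lhx1* was found in 17.6% ± 7.54 and 2.51% ± 0.804. Both genes were more frequent in the Foxb1 neurons of all 15 embryos, and *Lhx5* in 14 of 15 (11.5% ± 2.57 against 4.41% ± 1.73). The other 3 were no more frequent than in other neurons. *Lmx1a*, which also marks neurons of the neighbouring territory, was found in 0.496% ± 0.690 of Foxb1 neurons and 5.33% ± 1.86 of other neurons, and was higher in Foxb1 neurons in 0 of 15 embryos. *Barhl1* was at 1.46% ± 1.69 against 3.74% ± 1.39 and *Sim2*, a partner of *Sim1* in mammillary development, at 0.263% ± 0.557 against 0.336% ± 0.369. The *Sim2* values differed by less than their spread. *Sim2* had only 12 UMIs in the Foxb1 neurons, and since *Lmx1a* also marks the neighbouring territory, its rarity does not decide the label. With these 3 genes near or below the level of other neurons, the cells are called here by *Foxb1* and not by a nucleus.

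At the edges of the rule these 6 genes became rarer. At least 1 of the 6 was found in 82.0% of Foxb1 neurons, 47.7% of other neurons and 4.37% of vascular, immune and leptomeningeal cells, at median depths of 5561, 4958.5 and 3611 UMIs. By genotype it was 82.0% of Foxb1 neurons in both, and 37.1% of other neurons in control and 60.4% in *Eed-cKO*. The contrast with other neurons was thus weaker in *Eed-cKO*. The 6 genes include *Lmx1a*, *Barhl1* and *Sim2*, which were no more frequent in Foxb1 neurons, and *Onecut2*, a marker given with the rule. Over both genotypes the share was 71.7% in the 318 Foxb1 neurons with 1 *Foxb1* UMI and 85.3% in those with more. Just outside the rule, 154 neurons with *Foxb1* but no second gene had a share of 43.5%. In 1281 neurons with 0 *Foxb1* UMIs and 2 or more second genes it was 64.5% (54.9% in control, 73.7% in *Eed-cKO*). The 119 Foxb1 neurons with exactly 3 neuron genes had 65.5%, and 33 cells that failed only by having 2 neuron genes had 42.4%.

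*Lhx1*, a LIM homeobox gene, was the independent factor with the sharpest contrast, and it is not wholly independent. It lies on chromosome 11 (84518284-84525535, minus strand, GENCODE vM21 on GRCm38) next to *Lhx1os* (84525660-84535831, plus strand), from which it is transcribed away. Of 481 Foxb1 neurons with an *Lhx1* UMI, 91.9% also held *Lhx1os*, against 73.8% of the rest. The start regions of *Lhx1*, which fell in *Eed-cKO* Foxb1 neurons, and of *Tfap2b*, a factor that rose there, are shown for comparison, since PRC2 is known to act at promoters rich in CG pairs. They are the 250 bases before each RefSeq start on GRCm38.p6, read along the gene's strand, with every CG in capitals: chr11:84525535-84525784 (minus strand) for *Lhx1*, which spans the annotated start of *Lhx1os*, and chr1:19211804-19212053 (plus strand) for *Tfap2b*.
Lhx1: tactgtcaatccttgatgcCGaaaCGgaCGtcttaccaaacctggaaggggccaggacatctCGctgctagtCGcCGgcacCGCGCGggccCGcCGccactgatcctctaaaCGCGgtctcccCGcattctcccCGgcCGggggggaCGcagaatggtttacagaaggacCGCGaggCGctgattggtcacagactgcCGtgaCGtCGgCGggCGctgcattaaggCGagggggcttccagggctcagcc
Tfap2b: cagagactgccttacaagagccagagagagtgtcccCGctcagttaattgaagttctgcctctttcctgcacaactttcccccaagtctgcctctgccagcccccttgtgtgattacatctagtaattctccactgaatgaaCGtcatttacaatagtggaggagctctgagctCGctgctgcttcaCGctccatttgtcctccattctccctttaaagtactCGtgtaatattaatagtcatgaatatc
The *Lhx1* window held 26 CG pairs, a number reached by 9.59% of 32851 RefSeq promoters, and the *Tfap2b* window held 5, reached by 55.6%. At least 1 CG was present in 92.1% of all promoters, whose median was 6. H3K27me3 at these promoters was not measured here, and a relation of CG number to the changes was not tested.

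Genes beyond the rule that set the Foxb1 neurons apart from other neurons are described without a test, because the rule was set on this contrast. Of 10545 genes with at least 50 UMIs in the Foxb1 neurons, 137 were higher and 230 lower in all 15 embryos. *Rprm*, encoding the cell cycle regulator Reprimo, was at 406 (lowest), 828.5 (median) and 1492 (highest) counts scaled to a total of 1e6 (CPM) in Foxb1 neurons over the 15 embryos, and at 85.6, 145 and 240 CPM in other neurons. *Nkx2-1*, a homeobox factor of the ventral hypothalamus, was at 340, 595 and 983 CPM against 54.3, 115 and 145 CPM. *Lhx1* was at 33.9, 79.7 and 226 CPM against 5.91, 15.5 and 23.7 CPM. In each of these genes the lowest Foxb1 value lay above the highest value of other neurons.

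The largest ratio of mean levels was that of *Myo5b*, a myosin of vesicle recycling, at 54.5 ± 37.5 against 2.86 ± 0.842 CPM, a ratio of 19.1. It was followed by *Nppa* (natriuretic peptide A, ratio 11.3), *Insm2* (a zinc-finger factor, 7.99), the neuropeptide gene *Nmu* (7.76), *Ifit2* (7.70), *Lhx1* (7.06), the factor gene *Sall3* (6.92), *Nxph4* (a neurexophilin, 6.18), the homeobox gene *Emx2* (6.15), *Rprm* (6.02), *Fezf2* (5.93), *Nkx2-1* (5.48), *E030019B13Rik* (5.29), the homeobox gene *Uncx* (4.78) and *Lhfp* (4.5). In 11 of these 15 genes the embryos' ranges did not overlap, the exceptions being *Insm2*, *Nmu*, *Fezf2* and *Uncx*. The 15 were chosen by ratio among genes higher in all 15 embryos, so that count was favoured by the choice and is not read as a result. Among genes with at least 50 UMIs in other neurons, those with the smallest ratios included markers of other hypothalamic territories. They were nearly absent from the Foxb1 neurons, so the ratios rest on few UMIs. *Nr5a1*, the factor of the ventromedial nucleus, had 3 UMIs in Foxb1 neurons and 311 in other neurons. *Sp8* and *Sp9*, factors of GABAergic neurons, had 17 and 23 against 927 and 1147, and *Foxa2*, a floor plate factor, had 12 against 427.

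**Figure D1:**
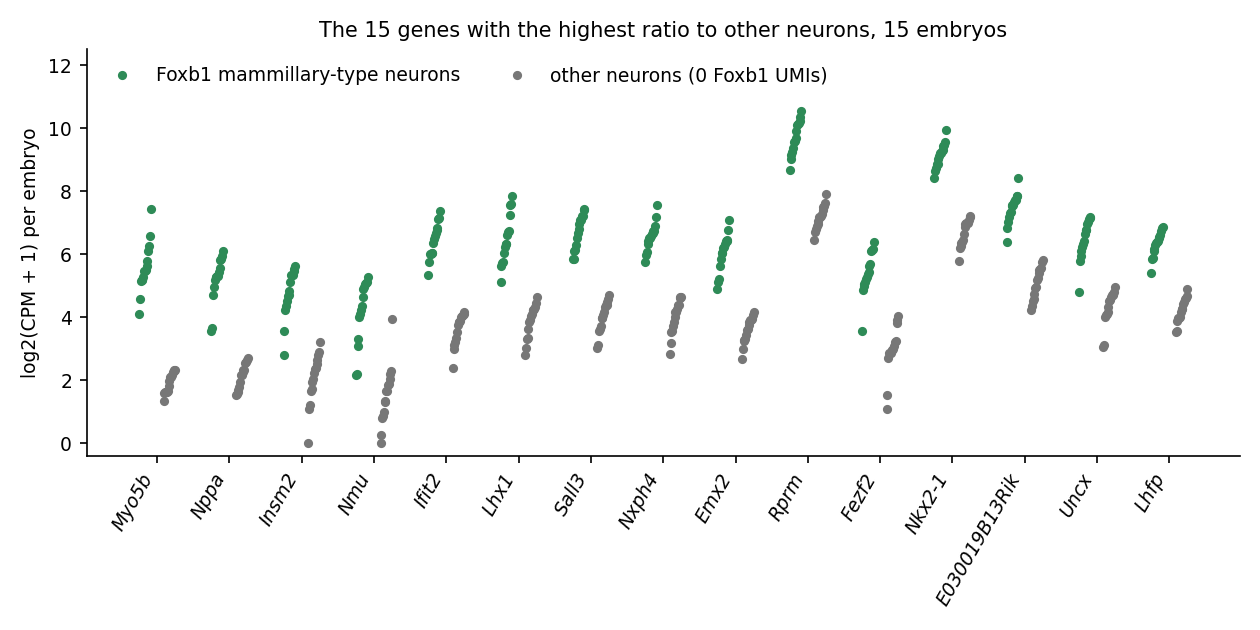
Levels of 15 genes outside the rule, as log2 (CPM + 1), with 1 point for each of 15 embryos in Foxb1 neurons and in other neurons. Each gene was chosen as higher in the Foxb1 neurons of all 15 embryos, and the ratios ran from 4.5 (*Lhfp*) to 19.1 (*Myo5b*).

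The share of Foxb1 neurons among neurons did not pass the test between genotypes. They made up 6.00% (lowest), 10.1% (median) and 12.9% (highest) of the neurons of control embryos and 5.96%, 12.7% and 20.9% of those of *Eed-cKO* embryos. The ranges overlapped. The mean share was 9.84% ± 2.52 (SD, n = 6) in control and 12.6% ± 4.14 (n = 9) in *Eed-cKO*, a difference of 2.72 percentage points (two-sided exact permutation test, 5005 possible splits, p = 0.178). When at least 2 *Foxb1* UMIs were asked of a cell the shares were 8.09% ± 2.30 and 8.74% ± 3.77. With each library taken as a sample the difference was 3.01 points and passed the threshold (permutation test with 100000 resamples, p = 0.0104), but libraries of 1 embryo are not independent.

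The second genes conditioned the Foxb1 neurons, so their genotype comparison was made in all 1448 neurons with a *Foxb1* UMI. None of the 5 passed the threshold. *Lhx1os* was found in 67.6%, 77.2% and 78.1% (lowest, median, highest) of these neurons in control embryos and in 50%, 66.7% and 80.4% in *Eed-cKO* embryos, and the ranges overlapped (difference -8.19 percentage points, exact permutation test, adjusted p = 0.215 over 5 genes). *Prokr2* was at 25.8% ± 6.11 (n = 6) and 18.9% ± 6.96 (n = 9; exact permutation test, adjusted p = 0.215). *Sim1* was at 44.9% ± 8.54 and 39.2% ± 7.35 (exact permutation test, adjusted p = 0.305), *Nhlh2* at 56.8% ± 8.17 and 50.7% ± 10.5 (adjusted p = 0.319), and *Cck* at 62.7% ± 5.57 and 58.6% ± 9.74 (adjusted p = 0.380). All 5 means were lower in *Eed-cKO*, by 4.09 points at the least, but with cells thinned to 2000 UMIs *Sim1* was 1.84 points higher in *Eed-cKO* (exact permutation test, adjusted p = 0.770).

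Most Foxb1 neurons held UMIs of *Slc17a6*, the vesicular glutamate transporter, and fewer did so without *Slc32a1*, the vesicular GABA transporter, in *Eed-cKO*. Over both genotypes 85.5% held *Slc17a6* and 10.5% held *Slc32a1*, against 51.3% and 33.7% of other neurons, and 7.57% and 2.04% of vascular, immune and leptomeningeal cells at a median of 3611 UMIs. Cells with *Slc17a6* alone made up 63.0%, 88.1% and 91.1% (lowest, median, highest) of control Foxb1 neurons and 57.6%, 72.1% and 80.8% of *Eed-cKO* Foxb1 neurons. The lowest control value was that of embryo F4650_E2, and the other 5 control embryos, at 84.4% or more, lay above every *Eed-cKO* embryo. The means were 84.2% ± 10.7 (n = 6) and 71.2% ± 6.90 (n = 9), a difference of -13.0 percentage points (exact permutation test, p = 0.0152, adjusted p = 0.0456 over 3 classes). Without library F4650_E2S4 the control mean was 88.1% ± 2.60 and the adjusted p = 0.00120 by the same exact test.

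The call was lost with cells thinned to 2000 UMIs (67.5% ± 7.81 against 58.8% ± 7.63, exact permutation test, adjusted p = 0.161) and when at least 2 *Foxb1* UMIs were asked (86.3% ± 11.1 against 81.6% ± 6.63, adjusted p = 0.866). It was also lost when any 1 of 11 embryos was left out, with differences between -13.3 and -11.3 points among those, and kept without F4650_E2, F0582_E7, F0652_E5 or F0652_E8. Cells with both transporters made up 0%, 3.03% and 15.8% of control Foxb1 neurons and 0%, 8.33% and 27.2% of *Eed-cKO* Foxb1 neurons (lowest, median, highest). Their means were 4.68% ± 5.67 (n = 6) and 11.2% ± 9.33 (n = 9), a difference that did not pass (exact permutation test, adjusted p = 0.224). Cells with neither made up 6.98%, 9.12% and 17.8% of control Foxb1 neurons and 7.48%, 13.04% and 33.3% of those of *Eed-cKO*, with means of 10.1% ± 3.86 (n = 6) and 16.4% ± 8.62 (n = 9), a class that was not tested. Cells with *Slc32a1* alone were at 0.960% ± 1.36 and 1.22% ± 1.35 (exact permutation test, adjusted p = 0.722).

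**Figure D2:**
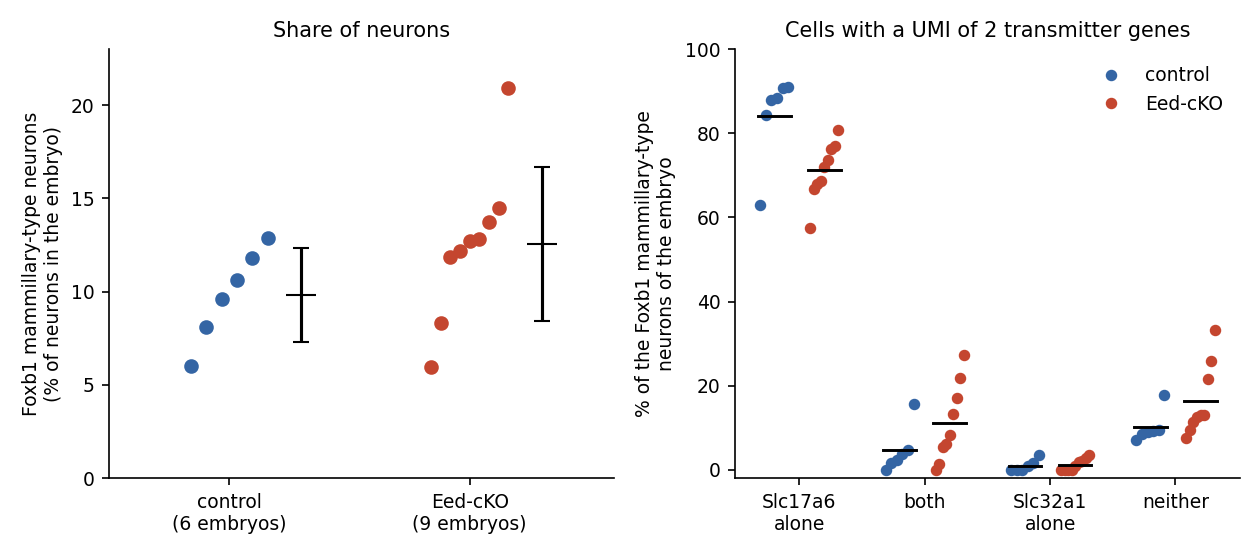
Left, Foxb1 neurons as a percentage of all neurons, with 1 point per embryo and the mean ± SD. Right, percentage of Foxb1 neurons with UMIs of *Slc17a6* alone, of both transporters, of *Slc32a1* alone or of neither, with bars at the means; the control embryo at 63.0% for *Slc17a6* alone is F4650_E2, and the other control embryos lie above all 9 *Eed-cKO* embryos.

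Across the transcriptome, 274 of 12569 genes tested differed between *Eed-cKO* and control Foxb1 neurons, which is 2.18% (edgeR's quasi-likelihood test on UMIs summed per embryo, Benjamini-Hochberg adjusted p under 0.05). Of these, 157 (1.25%) were higher and 117 (0.931%) lower, and 1803 genes had an unadjusted p under 0.05. In other neurons of the same embryos, which were far more numerous, 2015 genes (16%) differed. Both libraries and embryos moved the count. It was 586 without library F4650_E2S4, 547 without embryo F4650_E2, and as low as 117 without embryo F4520_E2. Embryos F4520_E4 (127), F0588_E7 (142), F0589_E1 (161) and F502_E9 (164) lowered it by more than 1.5 times as well. Of the 274 genes, 266 were also called in the same direction without F4650_E2S4.

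*Eed* itself was counted at 21.4, 33.7 and 39.9 CPM (lowest, median, highest) in control Foxb1 neurons and at 0, 25.3 and 43.5 CPM in *Eed-cKO*. The ranges overlapped, and the log2 fold change was -0.23 (standard error, SE, 0.25, adjusted p = 0.739). Where the counted 3′ tags lie relative to the floxed exons 3 to 6 was not examined, so the level does not check the deletion. Exons of *Eed* overlap those of an antisense gene. Over all hypothalamic neural cells at E18.5, the authors reported *Eed* as downregulated, with limma on sums per sample. Among 10 genes of PRC2 subunits tested and 9 genes of the partner complex PRC1, 0 were called in edgeR's test. The cyclin-dependent kinase inhibitor *Cdkn1c* was at 123, 171 and 261 CPM in control and 52.1, 222 and 309 CPM in *Eed-cKO*, a log2 fold change of 0.28 (SE 0.16, adjusted p = 0.467). None of the 4 cell cycle inhibitors tested was called. The rest of that list of 7, *Cdkn2a*, *Cdkn2b* and *Cdkn2c*, did not pass the filter on low counts and were not tested. In control Foxb1 neurons *Cdkn2a* and *Cdkn2c* had 0 UMIs, and *Cdkn2b* had 1, in F4650_E2. In the *Eed-cKO* embryo F0588_E7 each had 8 UMIs, and in F0589_E1 they had 3 (*Cdkn2a*), 8 (*Cdkn2b*) and 4 (*Cdkn2c*).

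Of the transcription factors of the mammillary region, 1 of 23 tested was lower and 0 were higher, beside 0.931% and 1.25% of all genes, with a median log2 fold change of -0.13 against -0.00 over all genes. That gene was *Lhx1*, at 53.5, 170 and 238 CPM in control Foxb1 neurons and 26, 81.3 and 108 CPM in *Eed-cKO*. The ranges overlapped through the low control embryos F4650_E2 (75.3 CPM) and F4690_E3 (53.5 CPM). *Lhx1* fell by 0.89 on the log2 scale (SE 0.23, edgeR adjusted p = 0.0312), and without library F4650_E2S4 by 1.00 (adjusted p = 0.00258). It was no longer called when 1 of 7 embryos was left out (F4520_E2, F4520_E4, F4530_E2, F4650_E1, F0588_E7, F0589_E1 or F502_E9), with an edgeR adjusted p of up to 0.181. It was also not called with at least 2 *Foxb1* UMIs or with limma-voom and TREAT (adjusted p = 0.500). *Ifit2*, which was also among the 15 genes that set Foxb1 neurons apart, fell from 121 ± 37.5 to 72.5 ± 21.9 CPM (log2 fold change -0.75, SE 0.19, edgeR adjusted p = 0.0279). The other 13 of those 15 genes were not called.

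The remaining mammillary factors were measured without a call. *Nkx2-1* was at 435, 559 and 706 CPM in control and 342, 634 and 767 CPM in *Eed-cKO*, a log2 difference of 0.07 (SE 0.14, adjusted p = 0.898). *Onecut2* was at 278, 519 and 582.01 against 317, 469 and 887 CPM (0.16, SE 0.17, adjusted p = 0.726). *Emx2*, *Uncx* and *Lhx5* had log2 differences of -0.35, -0.29 and -0.10, with SEs of 0.22, 0.20 and 0.18. In all of these genes the ranges of the genotypes overlapped.

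Hox genes, which set position along the hindbrain and spinal cord and are silent in the forebrain, were present in *Eed-cKO* Foxb1 neurons at a low and uneven level. Over 34 Hox genes, 0 UMIs were counted in the control Foxb1 neurons and 742 in the 706 *Eed-cKO* cells. Per *Eed-cKO* embryo the summed level was 0, 93.3 and 270 CPM (lowest, median, highest), where embryo F0582_E2, with 9 cells, was at 0. The 13 Hox genes that passed the filter on low counts did so only through *Eed-cKO*, so they had to differ and their number is not read as a result. *Hoxc13* had 100 UMIs, at least 29.6-fold above a control level set at 3 UMIs over the group, *Hoxc10* had 91 (at least 26.9-fold) and *Hoxb13* had 69 (at least 20.4-fold). Part of the *Hoxc10* UMIs is uncertain, since its exons overlap *Hoxc5* on the same strand.

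The Hox level of Foxb1 neurons lay below that of other neurons in every *Eed-cKO* embryo, a comparison described without a test. Other neurons held 437, 540 and 628 CPM (lowest, median, highest) of the 34 genes. With cells thinned to 2000 UMIs, a Hox UMI was found in 0%, 11.4% and 27.5% of Foxb1 neurons and in 33.9%, 42.6% and 50.4% of other neurons of the 9 embryos. The 2 ranges did not overlap. Pooled over embryos the thinned shares were 15.4% of Foxb1 neurons, 41.3% of other neurons and 8.10% of vascular, immune and leptomeningeal cells, where *Sox1-Cre* is not expected. Without thinning they were 24.5%, 50.7% and 11.9%, at median depths of 5048, 4804.5 and 3583 UMIs.

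Within the Foxb1 neurons the Hox level was lower where *Foxb1* was higher, a description only, since the rule's own UMIs define the strata. Pooled over *Eed-cKO* embryos it was 376 CPM in the 208 cells with 1 *Foxb1* UMI (embryo median 184), 162 CPM in the 195 cells with 2 or 3, and 42.0 CPM in the 303 cells with 4 or more. The vascular, immune and leptomeningeal cells were at 58.9 CPM, above the pooled level of cells with 4 or more *Foxb1* UMIs. Whether the Hox UMIs of either group are background was not tested. The level in cells with 4 or more *Foxb1* UMIs is therefore read neither as expression nor as its absence. The 4-or-more cells lay below the 1-UMI cells in 8 of 9 embryos, below other neurons in 9 of 9, and above the vascular, immune and leptomeningeal cells in 3 of 9. By second genes the pooled level was 510 CPM with 1, 153 with 2, 88.2 with 3, and 91.9 with 4 or 5. The 86 *Eed-cKO* neurons with *Foxb1* but no second gene were at 503 CPM, beside 540 in other neurons. The part of other neurons admitted by the rule in these strata was not tested. Leaving out 40 *Eed-cKO* cells with at least 2 markers of 1 vascular, immune, leptomeningeal or pituitary list gave 156 CPM, where all Foxb1 neurons were at 173 CPM.

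**Figure D3:**
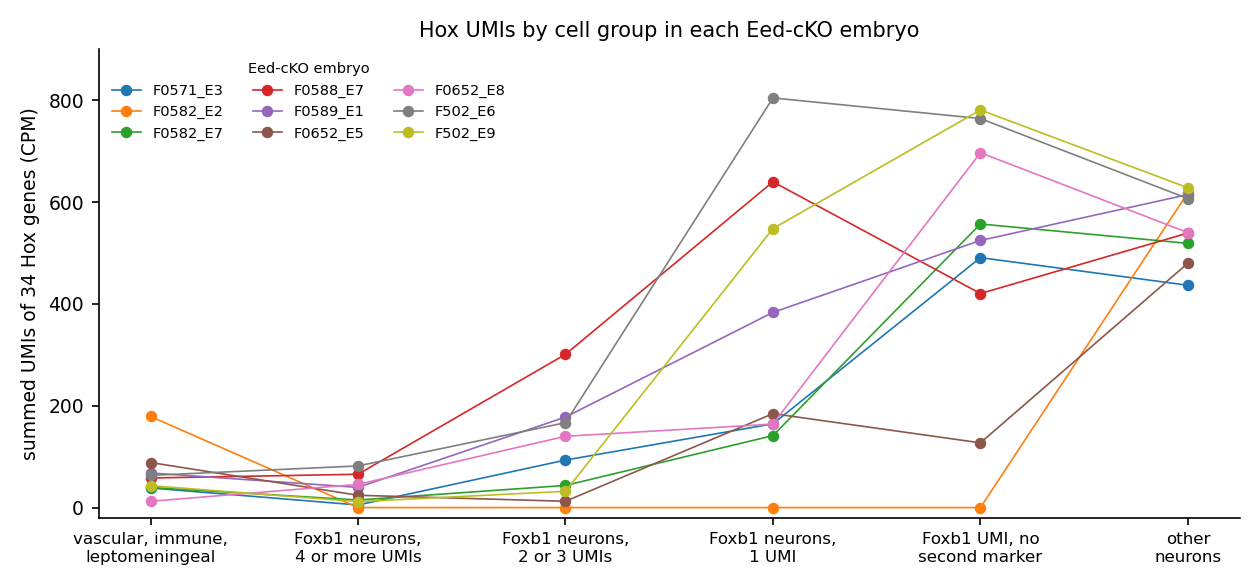
Summed CPM of 34 Hox genes in the 9 *Eed-cKO* embryos, with 1 point per embryo for each of 6 groups of cells. Foxb1 neurons with 4 or more *Foxb1* UMIs (pooled 42.0 CPM) lie near the vascular, immune and leptomeningeal cells (58.9 CPM), and those with 1 *Foxb1* UMI spread widely between embryos, from 0 to 804 CPM with a median of 184, where other neurons have a median of 540 CPM.

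Genes other than Hox genes that were silent in control were also looked at. Of 18 genes near silence in control other neurons and higher there in *Eed-cKO*, 13 were Hox genes. The other 5 were *Vax2*, *Mira*, *Barx1*, *Nkx2-5* and *Hand2*, all but *Mira* factors with a homeobox or helix-loop-helix domain. The position of *Mira* relative to the Hox clusters was not examined, so the 5 are not read as lying outside them. All 18 had 0 UMIs in control Foxb1 neurons, and in *Eed-cKO* their median ratio of Foxb1 neurons to other neurons was 0.269 (0.280 over the 5). Since the genes were chosen for their rise in other neurons, a ratio below 1 was favoured by the choice and is not read as a result. Summed over the 5 genes the level was 0, 16.3 and 74.2 CPM in Foxb1 neurons and 78.8, 85.2 and 101 CPM in other neurons. The 2 ranges did not overlap. *Vax2*, a homeobox gene of the optic stalk, had 53 UMIs in *Eed-cKO* Foxb1 neurons, at least 15.7-fold above the control floor.

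Of 11 hindbrain and spinal cord factors tested beside the Hox genes, 3 rose and 0 fell, beside 1.25% of all genes higher and 0.931% lower. Of the 11, 3 had at most 3 UMIs in a genotype, *Tfap2a* among them, and passed the filter through the other genotype, so the count is partly set by the filter. *Tfap2b*, an AP-2 factor, was at 0, 0 and 21 CPM in control (lowest, median, highest) and at 0, 18.2 and 98.8 CPM in *Eed-cKO*. All of its 17 control UMIs were in embryo F4650_E2, and it rose by 3.09 on the log2 scale (SE 0.59, edgeR adjusted p = 0.00289). Its paralogue *Tfap2a* had 1 UMI in control and 27 in *Eed-cKO*, a ratio of 24 (95% counting interval 3.95 to 982). It passed the filter through *Eed-cKO* alone, so its call is not read as a result. *Tal1*, a helix-loop-helix factor of midbrain, hindbrain and spinal interneurons, was at 0, 0.569 and 15 CPM and at 0, 31.1 and 112 CPM (log2 fold change 3.76, SE 0.60, adjusted p = 0.000347). The ranges of all 3 overlapped, and the highest control embryo lay above several *Eed-cKO* embryos for *Tfap2b* and *Tal1*. Of 21 anterior and hypothalamic factors of other regions tested, the call was that of *Vax2*, which with 0 control UMIs passed the filter only through *Eed-cKO* and had to differ, so it is not read as a result.

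Among 29 neuropeptide and secreted synaptic genes tested, 4 fell and 1 rose, beside 0.931% of all genes lower and 1.25% higher. Without embryo F4520_E4, 1 of 26 fell and 0 rose. *Cbln2*, a cerebellin that organizes synapses, was at 189, 236 and 323 CPM in control and 26, 123 and 198 CPM in *Eed-cKO*. The ranges overlapped slightly, and the log2 fold change was -0.91 (SE 0.15, edgeR adjusted p = 0.000689). *Scg2*, secretogranin II of dense-core vesicles, went from 394 ± 40.7 to 232 ± 104 CPM (log2 fold change -0.66, SE 0.15, adjusted p = 0.0112), and the opioid-related peptide gene *Pnoc* from 75.8 ± 17.5 to 111 ± 30.5 CPM (0.56, SE 0.15, adjusted p = 0.0351). *Cbln2* was not called with at least 2 *Foxb1* UMIs (edgeR adjusted p = 0.0801), and *Pnoc* was called in 5 of 15 leave-one-out fits. *Tac1*, the substance P gene, was at 176 and 167 CPM without a call (log2 difference -0.01, SE 0.16), and *Adcyap1*, a peptide of mammillary neurons, at 71.3 and 64.0 CPM (-0.35, SE 0.20).

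The falls of *Avp* (vasopressin) and *Pmch* (melanin-concentrating hormone) rested on 1 control embryo, F4520_E4. It held 1714 of 1731 control *Avp* UMIs, 1085 of them in a single cell, and without it the log2 fold change was -0.38 (edgeR adjusted p = 0.912), where with it the change was -6.18 (adjusted p = 0.00224). It also held 77 of 82 control *Pmch* UMIs, 75 of them in a single cell, and *Pmch* did not pass the gene filter without it.

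Several genes of axon guidance and of synapses fell and none of either list rose, beside 0.931% of all genes called lower. In the test of whether the genotype change differed from that in other neurons (below), 0 genes of either list were called. The falls are therefore not called particular to Foxb1 neurons. Of 38 axon guidance genes tested, 7 fell and 0 rose, with a median log2 fold change of -0.08. *Epha5*, an ephrin receptor, was at 43.3, 58.4 and 89.8 CPM in control Foxb1 neurons and 0, 30.4 and 45.1 CPM in *Eed-cKO* (log2 fold change -1.06, SE 0.21, edgeR adjusted p = 0.00425). *Epha4* was at 51.9, 101 and 141 against 0, 51.5 and 106 CPM (-0.92, SE 0.20, adjusted p = 0.00982). The ranges of both overlapped. The cell adhesion genes *L1cam* (539 ± 87.9 to 383 ± 71.0 CPM, log2 fold change -0.50, SE 0.12) and *Chl1* (904 ± 138 to 671 ± 98.4 CPM, -0.42, SE 0.11) fell as well, with edgeR adjusted p = 0.0179 and 0.0326. Exons of *L1cam* overlap *Arhgap4* on the same strand. The other 3 were the semaphorin receptor gene *Plxna4*, the contactin gene *Cntn1* and the Slit receptor gene *Robo2*, with log2 fold changes of -0.73, -0.62 and -0.57.

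Of 38 synapse and glutamate receptor genes, 6 fell and 0 rose, with a median log2 fold change of -0.31 and 32 negative values. *Grik1*, a kainate receptor subunit, was at 38.7, 62.4 and 76.4 CPM in control and 15.2, 26 and 57.4 CPM in *Eed-cKO* (log2 fold change -1.08, SE 0.20, edgeR adjusted p = 0.00269). *Grin3a*, an NMDA receptor subunit, was at 62.6, 99.6 and 134 against 0, 57.8 and 76.0 CPM (-0.76, SE 0.19, adjusted p = 0.0233). The neurexin gene *Nrxn2*, of a presynaptic adhesion protein, went from 743 ± 132 to 528 ± 86.4 CPM (-0.47, SE 0.11, adjusted p = 0.0177). *Grm5*, a metabotropic glutamate receptor gene (-0.63), and *Syt4*, a synaptotagmin gene (-0.52), fell as well, and *Grm5* lies within 30 Mb of *Eed* on chromosome 7. The ranges of the 3 genes given with values overlapped.

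These counts moved with depth and with single embryos. Among genes with at least 200 UMIs, where 1.48% of 7081 genes were called lower, the counts were 7 of 34 axon guidance and 6 of 34 synapse genes. With cells thinned to 2000 UMIs they were 1 of 35 and 5 of 37, with at least 2 *Foxb1* UMIs 1 of 37 and 4 of 38, and with 1 embryo left out they lay between 1 and 8 for both lists. The lowest count was reached without F4520_E2 for axon guidance, and without F4520_E2, F4520_E4, F0588_E7 or F502_E9 for synapses. With limma-voom and TREAT at 0.18 they were 0 and 1 of 38, and without library F4650_E2S4 they were 9 and 10 of 38. Of 27 genes of neuron differentiation stage 1 was called: *Calb1*, a calcium-binding protein of mature neurons, fell from 245 ± 57.9 to 136 ± 78.8 CPM (log2 fold change -0.70, SE 0.20, edgeR adjusted p = 0.0487), a call that 10 of 15 single embryos removed. *Dcx*, *Sox11* and *Map2* had log2 differences of -0.12, -0.00 and -0.06, with SEs of 0.10, 0.12 and 0.10.

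**Figure D4:**
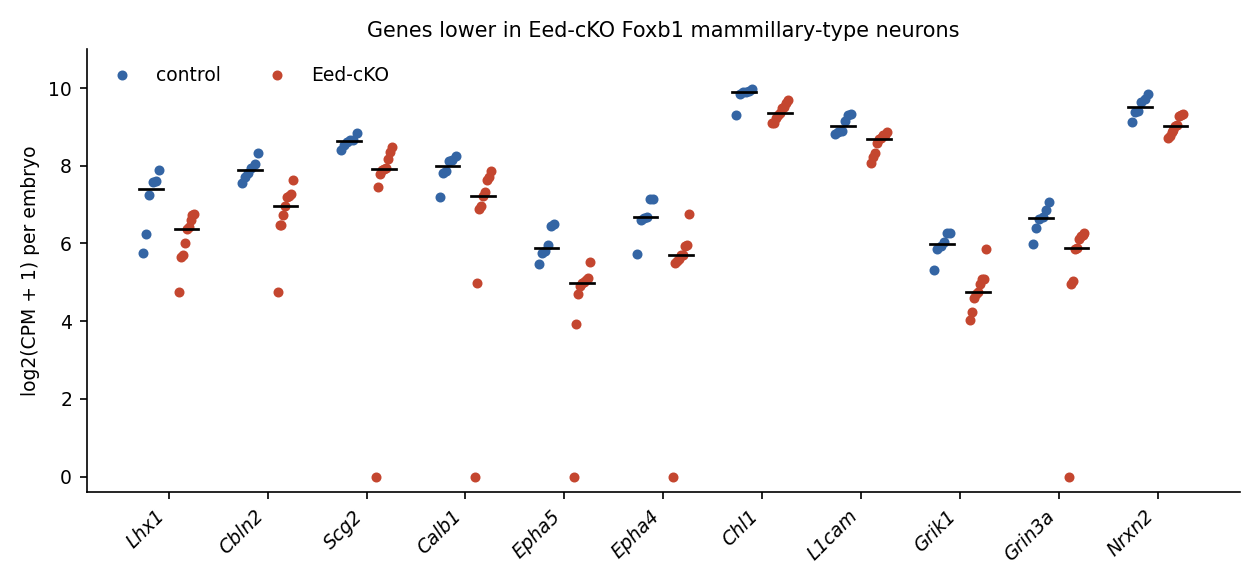
Levels of 11 genes that were lower in *Eed-cKO* Foxb1 neurons, as log2 (CPM + 1), with 1 point per embryo (6 control, 9 *Eed-cKO*) and bars at the medians. The points at 0 for several genes are embryo F0582_E2, which had 9 Foxb1 neurons.

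In 28 genes (0.223% of those tested) the change was called and no *Eed-cKO* embryo overlapped a control embryo, and 8 of these rose. The largest rise was that of *Hddc3*, a nucleotide hydrolase gene (chromosome 7, 80343104-80350547), at 15, 19.2 and 26 CPM in control and 78.1, 107 and 131 CPM in *Eed-cKO* (log2 fold change 2.39, SE 0.17, edgeR adjusted p = 1.2e-11). Its exons overlap those of *Man2a2* on the other strand. *Mfng*, a fringe glycosyltransferase of Notch receptors (chromosome 15, 78755882-78773475), rose from 6.35 ± 3.50 to 19.4 ± 5.28 CPM (1.63, SE 0.37, adjusted p = 0.0112). *Gadd45g*, a growth arrest and stress response gene (chromosome 13, 51846678-51848468), was at 10.2, 19.2 and 25.7 against 26, 48.2 and 76.0 CPM (1.38, SE 0.24, adjusted p = 0.000705). The others were *Dennd1c* (0.92), the histone variant gene *H2afv* (0.63), the apoptosis gene *Bax* (0.55), and the ribosomal protein genes *Rpl6* (0.51) and *Rpl7a* (0.43). *Dennd1c* was called in 3 of 15 leave-one-out fits and *Bax* in 9.

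The other 20 genes fell. *Myo7a*, an unconventional myosin of hair cells (chromosome 7, 98051060-98119524), was at 14.8, 17.5 and 25.7 CPM in control and 0, 0 and 3.55 CPM in *Eed-cKO*. It had 68 and 3 UMIs, a ratio of 25.5 (95% counting interval 8.37 to 127). *4931429I11Rik* had 25 and 3 UMIs, a ratio of 9.38 (2.86 to 48.5). Both genes passed the filter on low counts through control alone, so their calls are partly set by the filter. *Arl6ip1*, an endoplasmic reticulum shaping gene (chromosome 7, 118118891-118129662), was at 422, 521 and 605 against 182, 254 and 282 CPM (log2 fold change -1.06, SE 0.10, adjusted p = 2.49e-08). *Kcnd2*, a potassium channel of the A-type current (chromosome 6, 21215503-21729805), went from 110 ± 20.2 to 51.1 ± 23.7 CPM (-0.94, SE 0.17, adjusted p = 0.00199). The rest of the 10 largest falls were *Ampd3* (-1.28), *Lincenc1* (-1.21), *Fam103a1* (-1.14), *Ccdc40* (-1.09) and the ribosomal protein genes *Rps13* (-0.96) and *Rps15a* (-0.89). UMIs of the ribosomal protein genes are uncertain, since these genes have near-identical copies in the genome.

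Several of these genes lie on chromosome 7 near *Eed* (89954654-89980983). Within 30 Mb of *Eed*, 14 of 248 genes tested were called (5.65%), 11 of them lower, and in 7 the embryos did not overlap. On the rest of chromosome 7 the figures were 15 of 653 (2.30%) and 1 gene without overlap, and on all other chromosomes 231 of 11184 (2.07%) and 17. *Hddc3*, *Myo7a*, *Arl6ip1*, *Rps13*, *Rps15a*, *Ampd3* and *Grm5* were among the 14. In other neurons *Hddc3*, *Myo7a* and *Arl6ip1* changed in the same direction, with log2 fold changes of 2.93, -3.73 and -1.08, and *Ampd3* did not pass (-0.01, adjusted p = 0.986). The part of the floxed allele's surroundings in these changes was not tested.

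Markers of other cells differed between the genotypes as well. Of 4 leptomeningeal genes tested 3 rose, beside 1.25% of all genes: the collagen genes *Col1a2* and *Col1a1* and the matrix gene *Dcn*, with log2 fold changes of 3.72, 3.13 and 3.66. The summed level of the 5 genes of that list was 0, 4.17 and 87.7 CPM in control Foxb1 neurons and 0, 32.4 and 383 CPM in *Eed-cKO*. At least 2 of these markers were found in 1 control cell and 27 of 706 *Eed-cKO* cells, 14 of the latter in embryo F0588_E7, 9 in F0589_E1 and 3 in F502_E9. For ependymal and tanycyte markers such cells numbered 5 in control (0.850%) and 38 in *Eed-cKO* (5.38%), for cycling markers 2 and 13, and for astrocyte markers 18.03% and 22.4% of cells. *Crym*, of tanycytes, *Vtn*, of pericytes, and *Ube2c*, of cycling cells, also rose, by 3.59, 3.57 and 2.95 on the log2 scale. In the astrocyte (7 tested), oligodendrocyte precursor (3) and endothelial (2) lists 0 genes were called, and no microglial or pituitary marker passed the filter, where their summed levels were at most 29.4 and 92.1 CPM. The part of these markers in the genotype differences was not tested. Without the cells holding at least 2 markers of 1 vascular, immune, leptomeningeal or pituitary list, 208 genes were called, 198 of them shared with the 274 in direction. Ependymal, tanycyte, cycling and astrocyte markers were not used for that removal.

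The change between genotypes itself differed between Foxb1 neurons and other neurons in 16 of 12569 genes (0.127%; edgeR's quasi-likelihood test of the interaction with the embryo as a term, adjusted p under 0.05), and 885 genes had an unadjusted p under 0.05. In several of them a rise in other neurons was smaller or not called in Foxb1 neurons. *Onecut2*, a cut-homeobox factor, had log2 fold changes of 1.10 in other neurons and 0.16 in Foxb1 neurons (difference -0.88, SE 0.15, adjusted p = 0.00140). *Bmi1*, a PRC1 subunit, had changes of 1.41 and 0.55 (difference -0.85, SE 0.15, adjusted p = 0.00140). The same direction was found for *Vstm2l* (-0.78), *Igfbpl1* (-0.74) and *A930004D18Rik* (-2.27). In control, the level in Foxb1 neurons was above that in other neurons for *Onecut2* (489 against 114 CPM) and *Bmi1* (109 against 82.2 CPM). Levels of *Vstm2l*, *Igfbpl1* and *A930004D18Rik* are not compared here, and the part of the control level in these differences was not tested.

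In other genes a fall in other neurons had no counterpart past the threshold in Foxb1 neurons. *Slc18a2*, the vesicular monoamine transporter, went from 43.3 to 23 CPM in other neurons (log2 fold change -0.87, SE 0.11) and was at 38.6 CPM in both genotypes in Foxb1 neurons (0.28, SE 0.22), a difference of 1.16 (SE 0.22, adjusted p = 0.00595). *Kitl*, the Kit ligand, had changes of -1.38 and 1.09 (difference 2.37, SE 0.37, adjusted p = 0.000319), and *Ap1s2* and *Cadps2*, of vesicle traffic, had differences of 0.69 and 1.38. *Slc17a6* was at 477, 648 and 782 CPM in control Foxb1 neurons and 323, 501.8 and 663 CPM in *Eed-cKO* (-0.38, SE 0.12, adjusted p = 0.100, and 0.0184 without library F4650_E2S4), against 0.09 in other neurons. That difference of -0.48 (SE 0.09) was past the threshold (adjusted p = 0.00595). *Ppp3ca*, a calcineurin subunit, *Mpped2* and the non-coding RNA *Meg3* had differences of -0.34, -0.47 and -0.29, each with the lower value in Foxb1 neurons.

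*Mab21l1* and *Oxt* rested on few UMIs. *Mab21l1* had 1 UMI in control and 72 in *Eed-cKO* Foxb1 neurons, a ratio of 64.0 (95% counting interval 11.1 to 2561), where the log2 fold change in other neurons was 1.68 (interaction 4.01, SE 0.91, adjusted p = 0.0490). *Mab21l1* passed the filter on low counts through *Eed-cKO* alone, so its call is partly set by the filter. It lies within *Nbea* on the opposite strand. *Oxt* (oxytocin) had 4 and 11 UMIs, 8 of the latter in a single cell, and fell by 3.08 in other neurons (interaction 4.67, adjusted p = 0.0316). The count of 16 genes was 36 without library F4650_E2S4, 41 without embryo F4650_E2, and 8, 9 and 10 without embryos F4690_E3, F4520_E2 and F0588_E7.

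**Figure D5:**
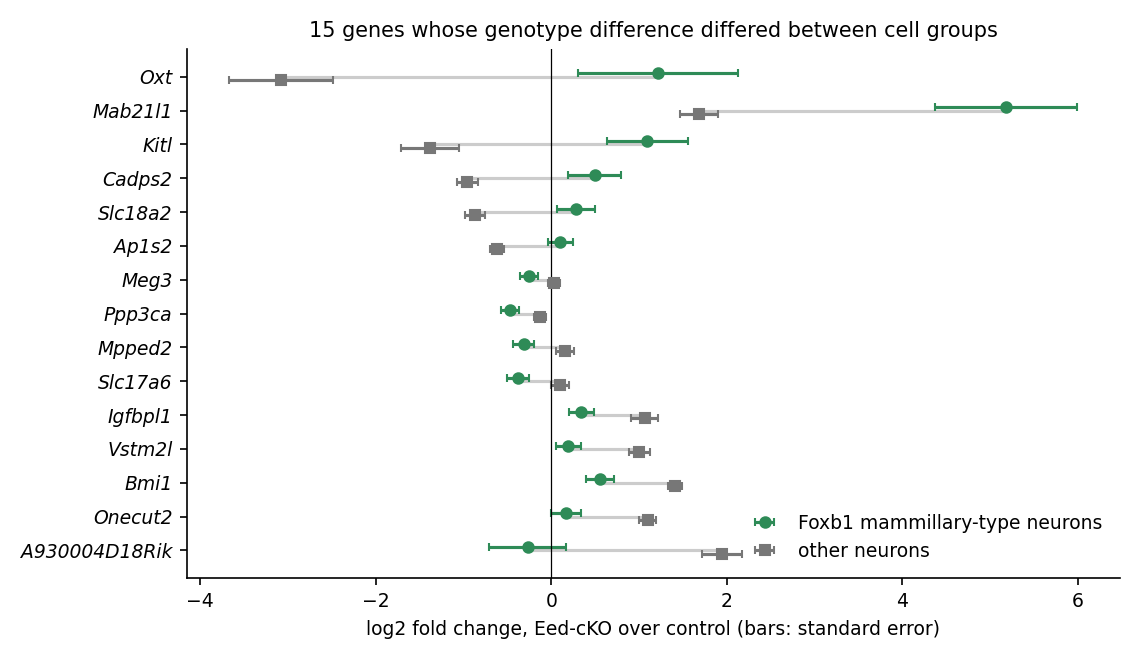
Log2 fold change (*Eed-cKO* against control) ± SE of 15 interaction genes in Foxb1 neurons and in other neurons. *Onecut2* and *Bmi1* lie at 0.55 or below in Foxb1 neurons and at 1.10 or above in other neurons, while *Slc18a2* and *Kitl* lie above 0 in Foxb1 neurons and below 0 in other neurons.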

How the data were processed

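Hypothalamic cells of E18.5 embryos were captured with the Bio-Rad ddSEQ system and SureCell 3′ libraries. The authors deposited 1 table of raw UMI counts (16510 genes, 14121 cells) without normalization, after removing low-quality cells. The submitters' notes name mm10, STAR 2.5.2b and SAMtools 1.3. The strand setting of counting was not given in the sources used here.

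From the deposited counts, cells were selected by the rule and summed per embryo. Genes with at least 15 UMIs over embryos, at least 2 in 1 embryo and found in at least 6 embryos were tested in embryos with at least 5 Foxb1 neurons, with edgeR 4.0.16 (quasi-likelihood test, TMM) in R 4.3.3 and Benjamini-Hochberg adjustment at 0.05. The 12 rule genes were left out. CPM between genotypes is scaled by the TMM-normalized total, other CPM by the plain total. For shares, the difference of embryo means was set against its values under the 5005 possible splits (exact permutation test, two-sided). Shares of cells with a UMI, bounds set at 3 counts and 95% exact intervals cover counting error only. No doublet caller was run, and the 6% of cells with the most UMIs were left out as an alternative. The vascular, immune and leptomeningeal cells are those with at least 3 markers of 1 endothelial, pericyte, microglia or leptomeningeal list that fail the neuron criterion.

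The members and gene lists were chosen with earlier results of these data known. Genes were named from the lists (at most 4 examples, by fold change and level), from the 10 largest rises and falls among called genes whose embryos did not overlap, and from the 15 highest ratios against other neurons. *Calb1*, the interaction genes, and list members or low-ratio genes beyond those numbers were named after their values were seen. *Lmx1b*, *Otp*, 5 Hox genes and some other listed genes were not analysed here. Values of some genes are not reported here, though counts over all genes and lists include them. Alternatives used DESeq2 1.42.0, limma 3.58.1 (voom with TREAT at 0.18), other scalings and filters, sex as a covariate, libraries as samples, cells thinned to 2000 UMIs and each embryo left out. The removal of library F4650_E2S4 and of cells with non-neural markers was chosen after seeing the data. The edgeR steps were tested on simulated data. Promoters came from RefSeq tables for GRCm38.p6, in which *Lhx1* and *Tfap2b* were matched.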

Additional observations from a re-analysis of the deposited data

Results flagged for a closer look

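In 22 of 120 groups of embryos looked at (18.3%), 1 embryo lay far from the others of its genotype. Chance marks about 1 in 20 such groups when values are normally distributed. Some groups held mostly zeros, where 1 UMI set an embryo apart (*Tfap2a* in control), so the 18.3% is not read against that rate. Control embryo F4650_E2 was the lowest for *Slc17a6* alone (63.0% of Foxb1 neurons, next 84.4%) and the highest for both transporters (15.8%, next 4.69%) and for neither (17.8%, next 9.38%). The same embryo was highest for *Tfap2b* (21 CPM, the others at 0) and *Mab21l1* (1.24 CPM, the others at 0) and lowest for *Chl1* (629 CPM, next 914 CPM). Control embryo F4650_E1 was highest for *Tal1* (15 CPM), *Col1a2* (22.5 CPM) and *Dcn* (19.96 CPM). Control embryo F4520_E4 was highest for *Avp* (1952 CPM, next 9.98 CPM) and *Pmch* (87.7 CPM, next 3.06 CPM). Among the other control embryos, F4520_E2 was highest for *Tfap2a* (1.43 CPM) and *Myo7a* (25.7 CPM), and F4530_E2 was highest for *4931429I11Rik* (17.6 CPM) and lowest for *Pnoc* (42.2 CPM).

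Among *Eed-cKO* embryos, F502_E9 was highest for *Avp* (24.8 CPM), *Rpl7a* (1089 CPM) and *Myo7a* (3.55 CPM). The highest value of *Grik1* (57.4 CPM) was in F0652_E8, of *Col1a2* (191 CPM) in F0589_E1 and of *Mab21l1* (65.9 CPM) in F502_E6. The lowest value of *Rps13* (78.1 CPM) was in F0582_E2, which had 9 Foxb1 neurons.

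The genotype change differed between Foxb1 neurons and other neurons in 16 genes by edgeR's interaction test, of which 15 are given. The log2 change in Foxb1 neurons minus that in other neurons was above 0 for *Oxt* (4.67), *Mab21l1* (4.01), *Kitl* (2.37), *Cadps2* (1.38), *Slc18a2* (1.16) and *Ap1s2* (0.69). It was below 0 for *A930004D18Rik* (-2.27), *Onecut2* (-0.88), *Bmi1* (-0.85), *Vstm2l* (-0.78), *Igfbpl1* (-0.74), *Slc17a6* (-0.48), *Mpped2* (-0.47), *Ppp3ca* (-0.34) and *Meg3* (-0.29).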

How the results depend on the processing

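The 274 genes called between genotypes became 96 with cells thinned to 2000 UMIs (85 shared in direction), 89 with at least 2 *Foxb1* UMIs (82 shared), 49 with limma-voom and TREAT (49 shared), 586 without library F4650_E2S4 and 859 with libraries as samples. They lay between 117 and 547 when 1 embryo was left out. Scaling by library size alone gave 199 higher and 103 lower genes. The 16 interaction genes became 59 without a gene filter, 49 without the 6% of cells with the most UMIs, 36 without library F4650_E2S4 and 26 without cells with non-neural markers, and lay between 8 and 41 when 1 embryo was left out. The share of Foxb1 neurons differed by 3.01 points with libraries as samples. The difference in *Slc17a6* alone was -8.71 points thinned and -4.76 with at least 2 *Foxb1* UMIs, and -17.3 to -11.3 when 1 embryo was left out. Directions turned for *Sim1* (1.84 points, thinned) and for *Slc32a1* alone (-0.447 thinned, -0.169 with at least 2 *Foxb1* UMIs, and -0.00793 to 0.757 when 1 embryo was left out). On the log2 scale they turned for *Eed* (0.064) and *Vstm2l* (-0.014) with at least 2 *Foxb1* UMIs, *Nkx2-1* (-0.022) without library F4650_E2S4, and *Ap1s2* (-0.0055 to 0.19 when 1 embryo was left out). The causes were not tested. Of 44 named genes past the threshold, 14 stayed past it between genotypes under every setting in which they were tested, as did 5 of the 15 interaction genes given. The 14 include *Hoxb13*, *Hoxc10*, *Hoxc13* and *Vax2*, which had 0 control UMIs and had to differ. They also include *Mab21l1* and *Myo7a*, whose calls are partly set by the filter, so the count of 14 is partly set by it too. No paired analysis was possible because no litter held both genotypes and replicate numbers followed accession order. Embryo F0582_E2, with 9 Foxb1 neurons, limits what its zeros show.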
